A study of Homo sapiens with 6 samples.

Results

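Antisense RNAs are transcripts read from the DNA strand opposite to a named gene, and are listed under the name of that gene with the ending -AS and a number. In human proximal tubular cells, 397 of them were expressed in at least 3 of 6 libraries, and this set was described before and after TGF-β1 together with the gene each one is named for, here called its sense gene. The members were chosen by their counts: of 1496 names with this ending on a primary chromosome, those with at least 10 counts in at least 3 of the 6 libraries were kept. Of the 41497 named entries in the tables, 14860 were tested, among them 386 of the 397 antisense RNAs. A sense gene was listed for 388 members, which named 383 different genes, and the other 9 carried cluster names such as HOXA-AS2 or had no listed partner.

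The cells were HK-2, a human line immortalised from the epithelium of the proximal tubule, whose cells reabsorb most of the filtrate in the kidney. The labels give both groups as wild type, with 3 libraries of untreated control cells and 3 of cells given TGF-β1 for 24 hours. The study's methods describe TGF-β treatment in medium without serum, and the sources used here do not say whether control cells were also kept without serum. TGF-β1 is the cytokine most studied in renal fibrosis, and in epithelial cells it acts through SMAD2 and SMAD3 to change the transcription of many genes. Libraries were made from mRNA captured by its poly(A) tail, so that antisense RNAs without such a tail were not measured. The libraries came from one line in culture and not from kidney tissue, and LRP2, the endocytic receptor megalin that defines proximal tubules in vivo, had 0 counts in all libraries.

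An antisense RNA can share a promoter region with its sense gene, can begin in one of its introns, or can lie beside it. Some are known to act on the gene they overlap, through the chromatin or by pairing with its RNA, and others work elsewhere in the cell or have no assigned role. Because 2 RNAs from opposite strands can come from the same DNA, a count that ignores strand assigns a read by its position only.

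Total counts ran from 21.9 to 26.9 megacounts (M) per library, and the antisense RNAs together held 0.151% to 0.174% of them. Epithelial keratins KRT8 and KRT18 and the renal transcription factor PAX8 were abundant, CD3E of T cells was at 0, and the 20 genes listed as direct TGF-β targets were all called higher after TGF-β1. The 9 markers of other cell types, of which 1 was at 0 in all libraries and 3 passed the filter on low counts, summed to 3.88 to 5.18 CPM in control and 6.21 to 7.45 CPM in TGF-β1 libraries: PDGFRB, a receptor of fibroblasts and pericytes, rose from a mean of 0.551 to 5.79 CPM, CD14 of monocytes fell from 2.55 to 0.763 CPM and CDH5 of endothelium from 0.888 CPM to 0. Their part in the changes below was not tested. The labels do not say whether libraries of a group came from separate cultures, so that p values measure the spread between these libraries, which may be technical.

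Antisense RNAs were mostly scarce, and more of them fell than rose. Their median level was 1.35 CPM, which are counts scaled to the depth of each library, with 161 of the 397 under 1 CPM and 29 at 10 CPM or more. Per length, the median was 0.783 FPKM against 6.87 FPKM for their sense genes, and 73 antisense RNAs had a higher mean FPKM than the gene they are named for. Exon bases shared with other genes, described below, lower the FPKM of a gene. Their exons spanned a median of 2015 bases, from 266 to 18036. After TGF-β1, 30 antisense RNAs were called higher and 83 lower at an adjusted p under 0.05 (edgeR quasi-likelihood test), which is 29.3% of those tested, beside 44.3% of all genes tested (7.77% higher and 21.5% lower, beside 22.2% and 22.1%). Log2 fold changes are given as TGF-β1 against control with their standard error (SE), and the median was -0.16 for antisense RNAs and 0.0063 for all genes tested. Of the sense genes, 95 were called higher and 91 lower of 349 tested (53.3%), with a median log2 fold change of 0.0035.

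The level of the RNAs moved with these shares. Among antisense RNAs under 1 CPM, 5 of 150 were called higher and 27 lower, and of all genes tested on primary chromosomes at that level 127 of 1575 were called higher and 314 lower. At 1 to 5 CPM the antisense counts were 10 higher and 42 lower of 180, beside 277 and 574 of 2250 genes, and at 5 CPM or more they were 15 and 14 of 56, beside 2831 and 2377 of 10598. Falls thus outnumbered rises among all scarce genes tested, and among the 56 most abundant antisense RNAs the directions were nearly even. The standard error of the log2 fold change had a median of 0.23 for antisense RNAs and 0.072 for sense genes, so that smaller changes could be called in the sense genes.

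**Figure D1:**
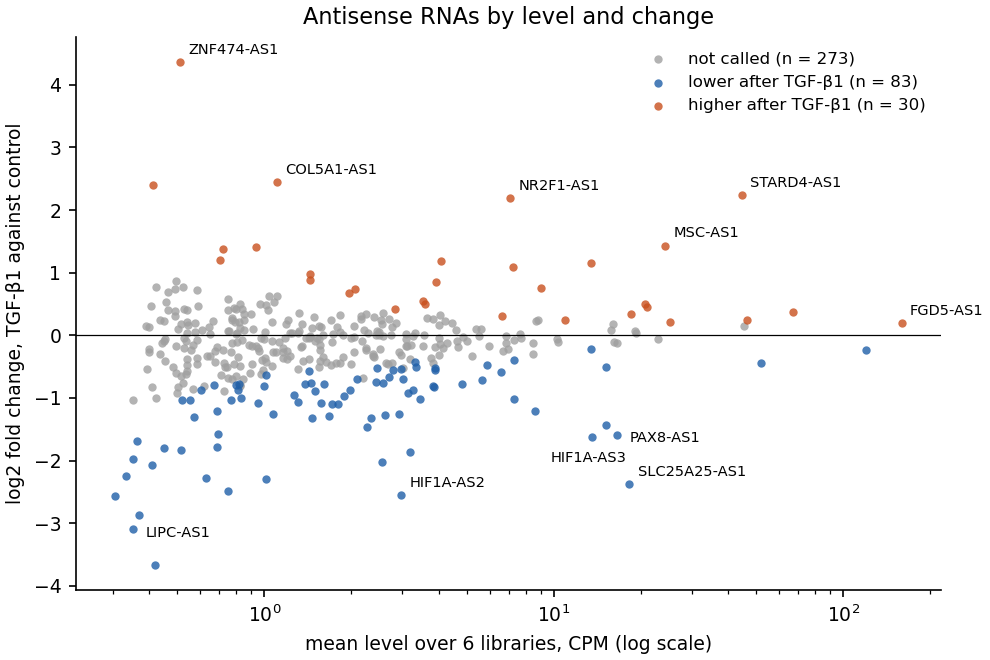
Each point is 1 of the 386 antisense RNAs tested, with its mean level over 6 libraries in CPM on a log axis and its log2 fold change on the vertical axis, coloured by the call. The 83 lower calls lie mostly at the left, under 5 CPM, and of the members at 5 CPM or more, 5 were called at least 2-fold higher, among them STARD4-AS1 and MSC-AS1, and 6 at least 2-fold lower, among them SLC25A25-AS1, HIF1A-AS3 and PAX8-AS1.

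The count limit shaped the edges of the set. It was reached in both groups by 377 antisense RNAs, of which 28 were called higher and 70 lower of 367 tested. Another 16 reached it in control libraries only and 4 in TGF-β1 libraries only, and since such members had to be high in 1 group, their 13 lower calls of 16 and 2 higher calls of 3 tested follow from the choice. At the limit itself, 24 members had exactly 10 counts in the last of the 3 libraries needed, such as ADAMTS9-AS1, CA3-AS1 and CACTIN-AS1, and 27 names just missed it with 9, such as ACBD3-AS1, ALKBH3-AS1 and BCL2L1-AS1. Of the 386 antisense RNAs tested, the groups did not overlap for 48 with TGF-β1 above and 118 with TGF-β1 below. Of all 14860 genes tested, the counts were 4150 (27.9%) and 4109 (27.7%).

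How reads were assigned was read from the tables. Of the entries over 150 bases whose exons are wholly covered by exons on the opposite strand, 31 were listed and all had 0 counts in every library, 8 of them antisense names. Reads over 2 genes were therefore dropped whatever their strand, and the count of an antisense RNA comes from exon bases that no other gene shares, which made up a median of 93.3% of its exons. Sense genes were counted in the same way. FPKM divides by all exon bases, so it is too low for a gene with few free ones, such as STARD4 with 2934 of 10140. Reads from the sense gene's introns, as in unspliced RNA, would be counted for an antisense RNA whose exons lie there. At least 50% of the exon bases lay in sense introns for 139 of the 397, and that share is given below where it is high.

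The rises were led by antisense RNAs of a collagen, a sterol carrier and an orphan nuclear receptor. Among called members that averaged 1 CPM or more and whose groups did not overlap, the largest log2 fold change was that of COL5A1-AS1 (chr9:134649385-134652843, GRCh38), which lies within introns of COL5A1, a chain of fibrillar collagen V. Its level was 0.222, 0.245 and 0.554 CPM in the control libraries and 1.88, 2.11 and 1.62 CPM in the TGF-β1 libraries. The log2 fold change was 2.44 ± 0.32 (SE, adjusted p = 0.000108), with all exon bases in sense introns, and COL5A1 itself changed by 1.41 ± 0.053. STARD4-AS1 (chr5:111512226-111739726) was the highest per length of these rises, with a mean of 7.85 FPKM. It stood at 14.5, 14.8 and 17.7 CPM in the control libraries and 54, 85.9 and 81.1 CPM in the TGF-β1 libraries, a log2 fold change of 2.23 ± 0.21 (SE, adjusted p = 0.000526). STARD4, which carries cholesterol between membranes, starts 341 bases away on the other strand and stood at 52.9, 52.6 and 52.8 CPM against 93.6, 134 and 134 CPM, a change of 1.19 ± 0.14. In both genes TGF-β1 replicate 1 was the lowest of its group and still above every control library.

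NR2F1-AS1 (chr5:93409356-93581320) runs away from NR2F1, an orphan nuclear receptor also called COUP-TFI. It was at 2.04, 3.11 and 2.47 CPM in the control libraries and 12.8, 10.9 and 11.1 CPM in the TGF-β1 libraries. This is a log2 fold change of 2.19 ± 0.15 (SE, adjusted p = 9.2e-07), and NR2F1 rose by 2.92 ± 0.10. MSC-AS1, beside the helix-loop-helix repressor gene MSC, was at 12.1, 11.9 and 15.2 CPM in the control libraries and 36.4, 34 and 35.5 CPM in the TGF-β1 libraries. MSC-AS1 thus changed by 1.43 ± 0.092 (SE, adjusted p = 4.23e-07), and MSC by 2.43 ± 0.10. Both antisense RNAs kept most or all of their exons outside the body of the sense gene, with 100% outside for NR2F1-AS1 and 82.1% for MSC-AS1.

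The other 6 rises named by the same criterion were smaller. FRMD6-AS1 and TENM3-AS1 lie in introns of FRMD6, a cytoskeletal adaptor upstream of the Hippo pathway, and of TENM3, a teneurin of cell contacts, with 100% and 99.1% of exon bases there. FRMD6-AS1 was at 2.44, 2.66 and 2.34 CPM against 5.03, 6.33 and 5.59 CPM in control and TGF-β1 libraries, a change of 1.19 ± 0.14, and TENM3-AS1 at 9.305, 7.44 and 8.22 CPM against 18.5, 18.9 and 18.4 CPM, a change of 1.16 ± 0.092. Their sense genes changed by 1.87 ± 0.077 and 0.99 ± 0.12. INHBA-AS1, opposite the activin βA gene INHBA, was at 4.61, 4.21 and 5.07 CPM against 7.18, 11.3 and 11 CPM and changed by 1.08 ± 0.17 (SE, adjusted p = 0.000543), with only 3.76% of its exon bases in sense introns. SSBP3-AS1 (0.99 ± 0.21) and LIF-AS2 (0.88 ± 0.20) again lie mostly in sense introns (100% and 84.6%), and both SSBP3 and the cytokine gene LIF were called higher. ZNF674-AS1, which starts 24 bases from the zinc finger gene ZNF674, was at 5.89, 7.15 and 7.12 CPM against 12, 11.4 and 10.5 CPM and changed by 0.75 ± 0.11 (SE, adjusted p = 0.000236). ZNF674 did not pass the test (0.16 ± 0.12 (SE, adjusted p = 0.314)), and its libraries overlapped between groups.

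By the same criterion of level and overlap, the falls were led by an antisense RNA of HIF1A, the oxygen-regulated transcription factor, and by SLC25A25-AS1. Scarcer members outside that criterion, such as LIPC-AS1 below, had larger fitted falls. HIF1A-AS2 (chr14:61747039-61749089) covers the 3′ end of HIF1A and only 40.5% of its exon bases are free of other exons. Its level was 3.41, 3.88 and 7.93 CPM in the control libraries and 0.653, 1.03 and 0.907 CPM in the TGF-β1 libraries. All TGF-β1 libraries lay below all control libraries, control replicate 3 stood highest, and the log2 fold change was -2.55 ± 0.37 (SE, adjusted p = 0.000779). HIF1A-AS3 (chr14:61715558-61751097), whose exons are all free of other exons, was at 19.2, 18.3 and 23.9 CPM in the control libraries and 5.45, 7.28 and 7.21 CPM in the TGF-β1 libraries, a change of -1.63 ± 0.14 (SE, adjusted p = 7.05e-06). HIF1A moved much less, from 645, 641 and 704 CPM to 458, 504 and 498 CPM, a change of -0.45 ± 0.061.

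SLC25A25-AS1 (chr9:128111171-128118734) combined a high level with a narrow spread. It was at 30.4, 31.6 and 29.6 CPM in the control libraries and 5.42, 5.96 and 6.303 CPM in the TGF-β1 libraries. The log2 fold change was -2.38 ± 0.079 (SE, adjusted p = 3.36e-09), the lowest adjusted p of any member. SLC25A25, which encodes a mitochondrial carrier of ATP-Mg, lies end to end with the antisense RNA without overlap and stood at 41.5, 40.5 and 35.2 CPM against 40.6, 38.7 and 40.2 CPM. Its value of 0.029 ± 0.072 (SE, adjusted p = 0.769) did not pass the test, and the groups overlapped.

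PAX8-AS1 (chr2:113235527-113267023) lies opposite PAX8, a transcription factor that kidney epithelium keeps from development onwards. It was at 22, 23.3 and 29.1 CPM in the control libraries and 4.92, 9.35 and 10.5 CPM in the TGF-β1 libraries, with 98.6% of its exon bases in PAX8 introns. The change was -1.60 ± 0.31 (SE, adjusted p = 0.0125), and PAX8 fell from 260.2, 258 and 235 CPM to 165, 144 and 143 CPM, a change of -0.73 ± 0.068. NR2F2-AS1 was at 3.77, 4.21 and 4.35 CPM in the control libraries and 0.691, 1.28 and 1.05 CPM in the TGF-β1 libraries, a change of -2.03 ± 0.22 (SE, adjusted p = 2.73e-05), and NR2F2, the orphan receptor COUP-TFII, changed by -1.41 ± 0.084. NR2F1 and NR2F2 are close relatives, and each moved in the direction of its own antisense RNA, NR2F1 up and NR2F2 down.

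Of the other 5 falls, 4 had most of their exon bases in sense introns. SLCO4A1-AS1 (75.7% in introns of the organic anion transporter SLCO4A1) was at 1.37, 1.39 and 2.301 CPM against 0.230, 0.372 and 0.430 CPM and changed by -2.30 ± 0.32; it reached the count limit in control libraries only. ITGB2-AS1 (57.1% in introns of ITGB2, the β2 integrin of leukocytes) was at 5.14, 5.64 and 4.18 CPM against 1.42, 1.45 and 1.24 CPM, a change of -1.86 ± 0.17. RNF157-AS1 (78.4%) changed by -1.46 ± 0.20 and ZFPM2-AS1 (77.2%) by -1.44 ± 0.076. ZFPM2-AS1 was at 21.3, 21.7 and 23.6 CPM against 8.14, 8.19 and 8.26 CPM, and ZFPM2, a GATA cofactor gene, at 3.37, 3.19 and 4.35 CPM against 1.42, 1.28 and 1.34 CPM. Per length, ZFPM2-AS1 had 14.3 FPKM and ZFPM2 0.202 FPKM. CBR3-AS1, opposite the carbonyl reductase gene CBR3, had 24.8% of its exon bases in sense introns and changed by -1.33 ± 0.18. The sense genes of these 5 were also called lower.

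**Figure D2:**
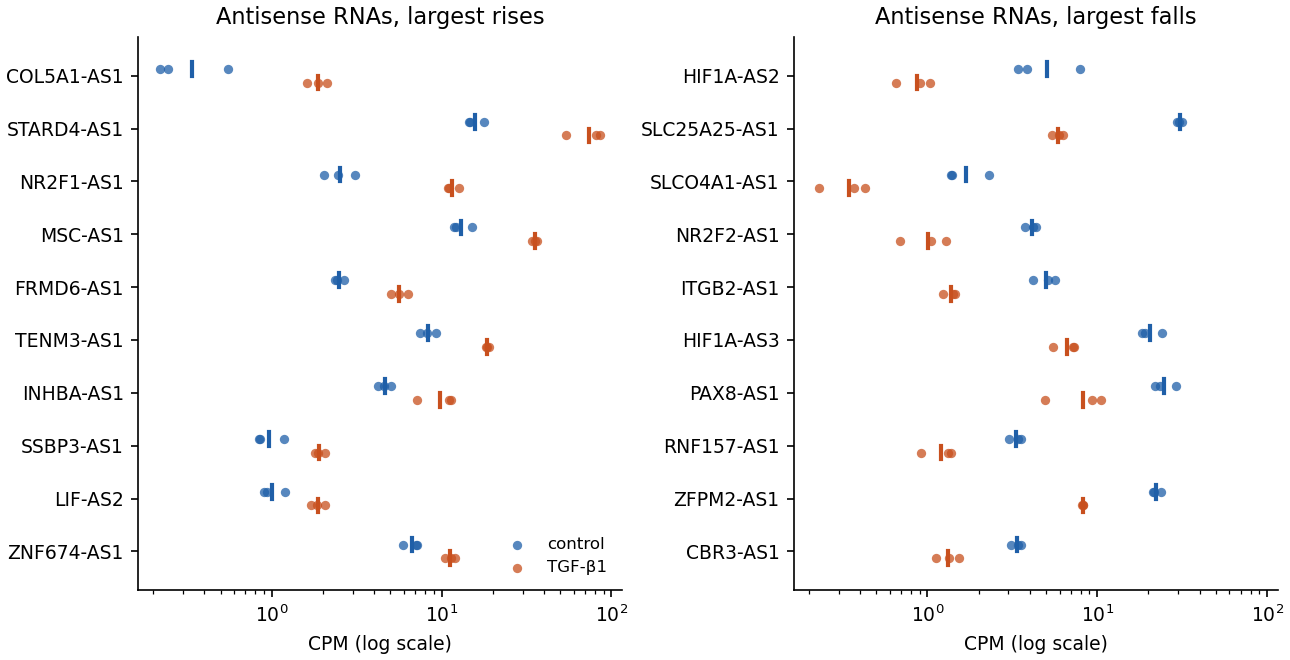
Levels in CPM on a log axis of the 10 antisense RNAs with the largest rise (left) and the 10 with the largest fall (right), 1 point per library and a bar at the mean of each group of 3. By the criterion for naming, no point of one group reaches the other; STARD4-AS1 is highest on the left, at 54.0 to 85.9 CPM after TGF-β1, and SLC25A25-AS1 highest on the right, at 29.6 to 31.6 CPM in control.

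Of the 5 antisense RNAs highest per length, HIF1A-AS3 (25.8 FPKM) fell, as described above, and the other 4 had smaller changes. FGD5-AS1 had the highest mean, 36.1 FPKM, and was at 143, 149 and 152 CPM in the control libraries and 166, 174 and 169.5 CPM in the TGF-β1 libraries. FGD5-AS1 changed by 0.20 ± 0.05 (SE, adjusted p = 0.00818). FGD5, a guanine nucleotide exchange factor of endothelium, had a single count in 1 control library and 0 elsewhere, and starts 129479 bases from the start of FGD5-AS1. THAP9-AS1 (28.9 FPKM) rose by 0.37 ± 0.08 (SE, adjusted p = 0.00344), and EPB41L4A-AS1 (17.4 FPKM) by 0.45 ± 0.077 (SE, adjusted p = 0.000717). NUTM2A-AS1 (19.4 FPKM), at 14.4, 15.6 and 15 CPM against 17.3, 17 and 16.9 CPM, did not pass the test (0.18 ± 0.069 (SE, adjusted p = 0.0508)), although its groups did not overlap. With libraries scaled by total counts only, the median of all genes moved to -0.10 and FGD5-AS1, at 0.091 with an adjusted p of 0.172 from edgeR, was no longer called.

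Antisense RNAs and their sense genes mostly moved together where both changed. In the 388 pairs, both genes were called in 69, in the same direction in 64 (18 higher and 46 lower) and in opposite directions in 5. Antisense RNAs that reached the count limit in 1 group only were kept here and in the shares and correlations below. Their direction follows from the choice of members. ZNF474-AS1, GASK1B-AS1, ITGB8-AS1, MAP3K5-AS1, LIPC-AS1 and SLCO4A1-AS1 are such members among the 64, and AFAP1-AS1 among the 5. The antisense RNA alone was called in 40 pairs, the sense gene alone in 120 and neither in 159. Where the partner was tested but not called, the antisense RNA was higher in 8 pairs and lower in 22, and the sense gene higher in 73 and lower in 44. All 388 sense genes lie on the opposite strand: gene bodies overlapped in 320 pairs, 57 were head to head, which means starts within 5 kb without overlap and transcription away from each other, and 11 lay apart. In the 280 overlapping pairs with both genes tested, 56 moved in the same direction and 4 in opposite directions. Head to head, the counts were 7 and 1 of 55 pairs.

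The same counts over other opposite-strand pairs of tested genes gave a scale for these. Of 1757 other overlapping pairs, 247 (14.1%) had both genes called in the same direction and 87 (4.95%) in opposite directions. Of 1182 other head-to-head pairs, the counts were 169 (14.3%) and 40 (3.38%). Among antisense pairs, the 7 of 55 head to head stood near that background as a share of pairs tested. Antisense RNAs were called less often than all genes tested (29.3% and 44.3%). Of head-to-head pairs with both genes called, 87.5% of antisense pairs and 80.9% of other pairs moved in the same direction. Among overlapping pairs these shares were 93.3% and 74%, and 87.5% for antisense pairs with under 50% of exon bases in sense introns. The position of the exons moved with the overlapping count. With at least 50% of antisense exon bases in sense introns, both genes were called in the same direction in 35 of 127 pairs and in opposite directions in 1. In the other 153 overlapping pairs these counts were 21 and 3. With no exon base within the sense gene body, both were called in the same direction in 8 of 65 pairs and in opposite directions in 1. Whether reads from sense introns contributed was not tested. Across the 344 pairs with both genes tested, Pearson's r of the log2 fold changes was 0.70 and Spearman's rank correlation 0.53. Pearson's r was 0.719 in overlapping antisense pairs and 0.396 in other overlapping pairs, and 0.662 and 0.41 head to head. Spearman's correlation was 0.557 and 0.293 in overlapping pairs, and 0.359 and 0.304 head to head. The 2 changes had the same sign in 66.1% of overlapping antisense pairs and 59.4% of other overlapping pairs, and in 61.8% and 60.7% head to head. This share was 75.6% with at least 50% of exon bases in sense introns, and 58.2% in the other overlapping antisense pairs. The 2 values of a pair come from the same 6 libraries, and genes are not replicates.

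**Figure D3:**
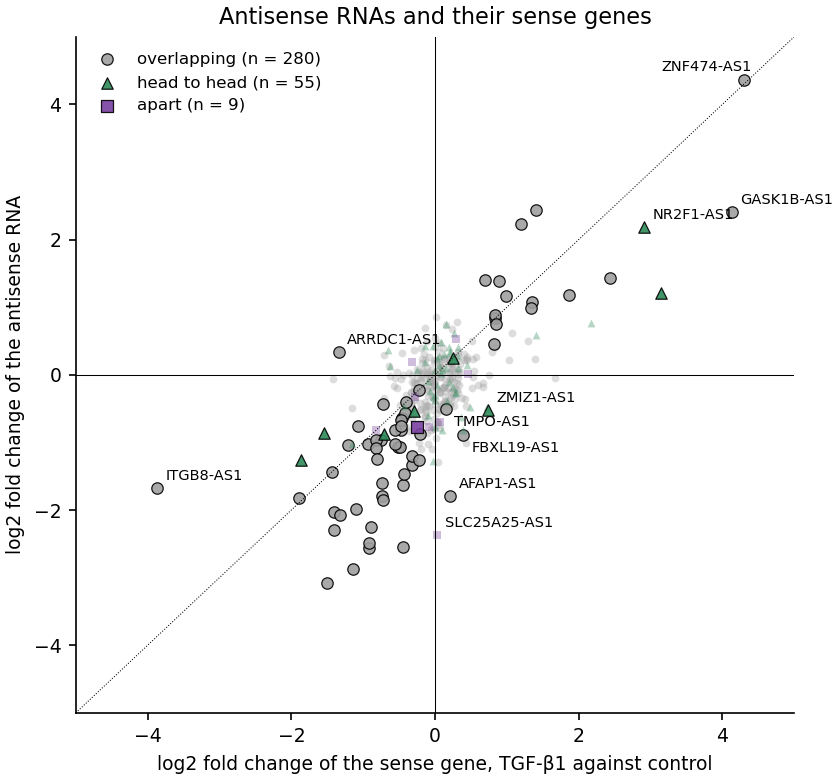
Each point is 1 of 344 pairs, with the log2 fold change of the sense gene on the horizontal axis and that of the antisense RNA on the vertical axis; circles are overlapping pairs, triangles head-to-head pairs and squares pairs apart, and outlined dark points have both genes called. Of the 69 outlined points, 64 lie at the lower left or upper right, and the 5 others are labelled AFAP1-AS1, ARRDC1-AS1, FBXL19-AS1, TMPO-AS1 and ZMIZ1-AS1.

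**Figure D4:**
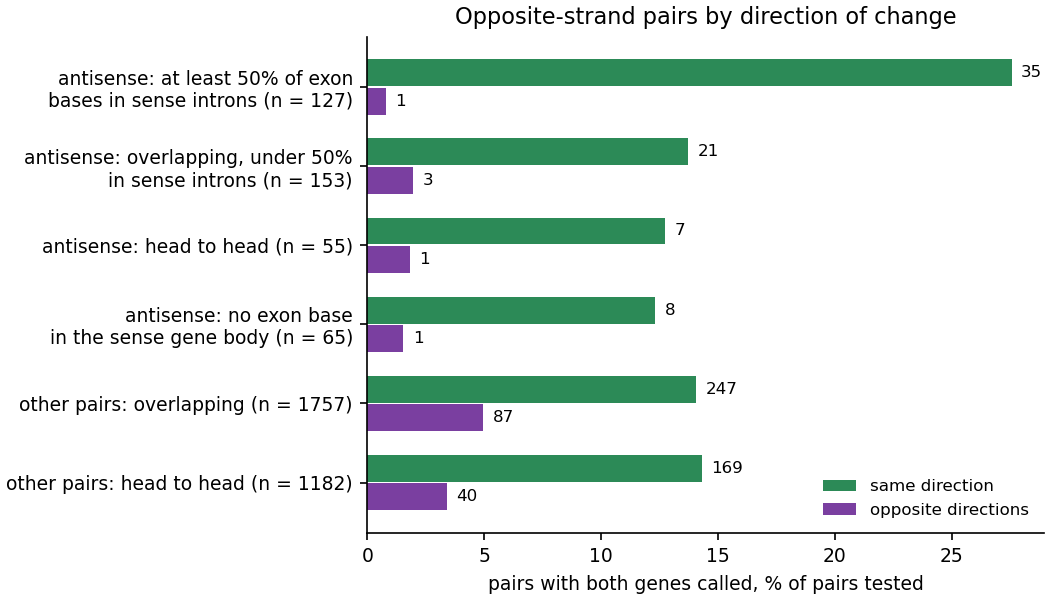
Bars give pairs with both genes called, in the same direction (green) or in opposite directions (purple), in percent of the pairs tested, with the number of pairs at each bar. Antisense pairs with at least 50% of exon bases in sense introns stand out with 35 of 127 in the same direction. As shares of pairs tested, the other antisense sets lie near the 14.1% and 14.3% of other opposite-strand pairs, although antisense RNAs were called less often than all genes tested.

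The pairs that rose together with the largest changes in both genes were those of ZNF474, GASK1B, NR2F1 and MSC. ZNF474-AS1 had 1, 0 and 2 counts in the control libraries and 24, 28 and 18 counts in the TGF-β1 libraries. From group sums of 3 and 70 counts the ratio was 23.1 (exact 95% interval 7.59 to 115, counting error only), and edgeR gave a log2 fold change of 4.37 ± 0.53 (SE, adjusted p = 6.15e-05). The zinc finger gene ZNF474 also had few counts, with sums of 3 and 67 counts and a ratio of 22.1 (7.25 to 110). ZNF474-AS1 overlaps ZNF474, and 18.5% of its exon bases lie in ZNF474 introns. GASK1B-AS1 had 3, 1 and 5 counts in the control libraries and 17, 23 and 10 counts in the TGF-β1 libraries, a change of 2.40 ± 0.50 (SE, adjusted p = 0.00272). GASK1B, a Golgi-associated kinase gene, went from 3.85, 3.23 and 4.13 CPM to 64.1, 67.1 and 65.6 CPM, a change of 4.13 ± 0.088. Both antisense RNAs reached the count limit in TGF-β1 libraries only, so that their rise is in part fixed by the choice of members.

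The pairs that fell together with the largest changes in both genes were those of ITGB8, MAP3K5, LIPC and ZFPM2. ITGB8, an integrin chain that releases TGF-β from its latent complex, went from 218, 226 and 226 CPM to 14.4, 15.3 and 16.2 CPM, a change of -3.87 ± 0.063 (SE, adjusted p = 7.24e-11). ITGB8-AS1 was at 0.532, 0.450 and 0.682 CPM against 0.192, 0.0827 and 0.239 CPM and changed by -1.68 ± 0.44 (SE, adjusted p = 0.0094), and with DESeq2 its adjusted p was 0.0558. None of its exon bases lie in ITGB8 introns. MAP3K5-AS1, all of whose exon bases lie in introns of the stress kinase gene MAP3K5, was at 0.753, 0.654 and 1.02 CPM against 0.269, 0.207 and 0.191 CPM, a change of -1.83 ± 0.35 beside -1.90 ± 0.068 for MAP3K5. LIPC-AS1, likewise within introns of the hepatic lipase gene LIPC, had 10, 20 and 15 counts in the control libraries and 3, 0 and 2 counts in the TGF-β1 libraries. That is -3.09 ± 0.60 beside -1.50 ± 0.19 for LIPC. ITGB8-AS1, MAP3K5-AS1 and LIPC-AS1 reached the count limit in control libraries only.

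Head-to-head pairs show the arrangement in which an antisense RNA begins beside its sense gene and leaves in the other direction. Both genes were called in the same direction in 7 of them, named here after their values were seen: NR2F1, HHIP and OTUD6B rose with their antisense RNAs, and ELF3, B3GALT5, PTGES2 and TRAM2 fell with theirs. HHIP, an inhibitor of Hedgehog ligands, went from 0.620, 0.450 and 0.511 CPM to 4.65, 4.22 and 5.25 CPM (3.15 ± 0.20 (SE, adjusted p = 3.44e-07)). HHIP-AS1 was at 0.487, 0.450 and 0.341 CPM in the control libraries and 1.27, 0.951 and 0.716 CPM in the TGF-β1 libraries, a change of 1.20 ± 0.31 (SE, adjusted p = 0.00854); with DESeq2 its adjusted p was 0.0556. ELF3, an ETS factor of epithelia, went from 218, 210.2 and 202 CPM to 75.1, 71.7 and 68.8 CPM (-1.55 ± 0.057), and ELF3-AS1 from 3.85, 4.701 and 4.09 CPM to 2.27, 2.27 and 2.39 CPM (-0.87 ± 0.15). B3GALT5, a galactosyltransferase gene, went from 36, 39.6 and 38.2 CPM to 7.95, 10.7 and 12.7 CPM (-1.87 ± 0.15), and B3GALT5-AS1 from 4.52, 3.802 and 4.05 CPM to 1.54, 2.11 and 1.53 CPM (-1.25 ± 0.18). In these 3 pairs the fitted change was larger for the sense gene than for its antisense RNA. PTGES2 of prostaglandin synthesis changed by -0.71 ± 0.071 beside -0.88 ± 0.19 for PTGES2-AS1, OTUD6B by 0.25 ± 0.062 beside 0.25 ± 0.067 for OTUD6B-AS1, and TRAM2, which takes part in collagen synthesis, by -0.29 ± 0.08 beside -0.54 ± 0.16 for TRAM2-AS1.

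The start regions of 4 of these pairs are printed because both starts lie within a single window. RefSeq windows (GRCh38.p14, from 250 bases before to 50 after a start) were matched by symbol for 298 of the 397 antisense RNAs. Each line runs 5′ to 3′ on the strand of the antisense RNA, and capitals mark the bases between the 2 starts: the sense gene begins just before the capitals and runs to the left on the other strand, and the antisense RNA begins just after them and runs to the right.
HHIP-AS1: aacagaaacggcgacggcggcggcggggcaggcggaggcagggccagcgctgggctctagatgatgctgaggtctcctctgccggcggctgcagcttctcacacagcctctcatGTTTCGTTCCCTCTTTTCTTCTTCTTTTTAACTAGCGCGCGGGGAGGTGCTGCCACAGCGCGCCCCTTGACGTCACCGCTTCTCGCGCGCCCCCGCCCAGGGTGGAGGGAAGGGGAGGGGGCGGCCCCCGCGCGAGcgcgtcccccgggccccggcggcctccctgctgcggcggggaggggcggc
ELF3-AS1: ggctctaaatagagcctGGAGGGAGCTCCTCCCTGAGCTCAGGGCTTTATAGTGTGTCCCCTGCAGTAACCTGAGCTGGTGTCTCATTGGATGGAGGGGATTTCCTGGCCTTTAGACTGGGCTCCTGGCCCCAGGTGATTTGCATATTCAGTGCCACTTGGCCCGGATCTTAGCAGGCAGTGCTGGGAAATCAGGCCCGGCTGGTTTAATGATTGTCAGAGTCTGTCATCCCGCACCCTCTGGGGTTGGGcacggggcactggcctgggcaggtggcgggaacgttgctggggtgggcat
B3GALT5-AS1: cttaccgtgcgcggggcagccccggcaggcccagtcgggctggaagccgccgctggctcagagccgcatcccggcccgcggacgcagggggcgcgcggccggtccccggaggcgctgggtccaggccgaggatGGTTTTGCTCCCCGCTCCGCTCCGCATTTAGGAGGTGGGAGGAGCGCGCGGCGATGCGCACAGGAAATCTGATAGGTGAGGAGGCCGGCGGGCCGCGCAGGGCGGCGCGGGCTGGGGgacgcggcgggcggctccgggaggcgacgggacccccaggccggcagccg
TRAM2-AS1: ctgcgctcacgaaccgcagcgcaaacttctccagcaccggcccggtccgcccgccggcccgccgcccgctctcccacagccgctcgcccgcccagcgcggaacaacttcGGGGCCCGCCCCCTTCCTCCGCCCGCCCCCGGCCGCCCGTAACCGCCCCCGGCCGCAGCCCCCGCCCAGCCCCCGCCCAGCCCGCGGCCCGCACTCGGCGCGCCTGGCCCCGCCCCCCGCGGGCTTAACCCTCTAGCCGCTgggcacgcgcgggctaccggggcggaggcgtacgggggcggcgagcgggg
The windows are chr4:144645970-144646269, chr1:202010304-202010603 and chr21:39612773-39613072, all on the minus strand, and chr6:52576952-52577251 on the plus strand. Between the starts lie 136 bases at HHIP, 233 at ELF3, 117 at B3GALT5 and 141 at TRAM2, in windows of 71.7%, 59%, 77.7% and 82% G and C. The median was 67.3% G and C over windows of head-to-head antisense RNAs, 63.3% over those of all matched antisense RNAs and 58.7% over all 35116 windows. The letters of the SMAD element CAGACA, the SMAD GC element GGCGCC and the AP-1 element TGANTCA, searched on both strands, are in none of the 4 windows. CAGACA was in 12.4% of the 364 antisense windows (some RNAs have several starts) and in 16.9% of all windows, GGCGCC in 24.2% and 19.2%, and TGANTCA in 6.04% and 7.71%. CAGACA was in 4 of 32 windows of antisense RNAs called higher and in 6 of 64 of those called lower. For GGCGCC these counts were 7 of 32 and 11 of 64, and for TGANTCA 3 of 32 and 2 of 64. A match or its lack describes these letters in this window only.

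In 5 pairs the antisense RNA and the sense gene were called in opposite directions, and in 4 of them the antisense RNA was the one that fell. ARRDC1-AS1 was at 16.8, 16.8 and 15.7 CPM in the control libraries and 22.5, 20.2 and 19.3 CPM in the TGF-β1 libraries, a rise of 0.33 ± 0.077 (SE, adjusted p = 0.005). ARRDC1, an arrestin-domain adaptor, fell from 30.3, 33.2 and 28.5 CPM to 13.5, 11.8 and 11 CPM, a change of -1.34 ± 0.09 (SE, adjusted p = 6.44e-07). The antisense to sense ratio of FPKM, on a log2 scale, was 0.71, 0.57 and 0.70 in the control libraries and 2.30, 2.34 and 2.37 in the TGF-β1 libraries, and no library of one group reached the other. The reverse was seen in the other 4 pairs. AFAP1-AS1, at 0.753, 0.572 and 0.767 CPM against 0.154, 0.207 and 0.239 CPM and at the count limit in control libraries only, changed by -1.79 ± 0.36; 92% of its exon bases lie in introns of AFAP1, an actin filament adaptor gene that rose from 26.6, 26.9 and 27.8 CPM to 30.4, 31.6 and 32 CPM (0.21 ± 0.06 (SE, adjusted p = 0.0151)). FBXL19-AS1 was at 1.95, 2.13 and 1.75 CPM against 0.806, 1.36 and 0.955 CPM (-0.90 ± 0.23 (SE, adjusted p = 0.00875)), and FBXL19, an F-box gene, at 37.7, 36.7 and 31.4 CPM against 49, 47.5 and 42.4 CPM (0.39 ± 0.083 (SE, adjusted p = 0.00288)). ZMIZ1-AS1, head to head with the transcriptional coregulator gene ZMIZ1, was at 2.57, 3.39 and 2.73 CPM against 2.27, 1.99 and 1.77 CPM (-0.53 ± 0.18 (SE, adjusted p = 0.0358)), and ZMIZ1 at 74.8, 74.7 and 76.6 CPM against 116, 134 and 126 CPM (0.73 ± 0.061 (SE, adjusted p = 3.45e-06)). TMPO-AS1 was at 16.3, 17.8 and 19.3 CPM against 13.6, 10.8 and 13.1 CPM (-0.51 ± 0.10 (SE, adjusted p = 0.00197)), and TMPO, a protein of the nuclear lamina, at 599.7, 589.8 and 628 CPM against 664, 672 and 682 CPM (0.15 ± 0.052 (SE, adjusted p = 0.0349)).

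These calls rest on small changes in 1 partner. Leaving out control replicate 2 left 2 opposite pairs, and so did leaving out TGF-β1 replicate 2. AFAP1, at 0.20, 0.20 and 0.19, lost its call without control replicate 2, TGF-β1 replicate 2 or TGF-β1 replicate 3, and TMPO and ZMIZ1-AS1 each lost theirs in 4 of the 6 fits that left out 1 library. For TMPO these were the fits without control replicates 1 and 2 and TGF-β1 replicates 2 and 3 (0.13 to 0.15), and for ZMIZ1-AS1 those without control replicates 2 and 3 and TGF-β1 replicates 2 and 3 (-0.57 to -0.40). With DESeq2, AFAP1 (0.20, adjusted p = 0.0559) and ZMIZ1-AS1 (-0.53, adjusted p = 0.122) were not called. With scaling by total counts only, AFAP1 (0.10, adjusted p = 0.2) and TMPO (0.043, adjusted p = 0.54) were not called by edgeR.

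The change of an antisense RNA relative to its sense gene was also read from the FPKM ratio in each library. Over 18 named pairs with a value in every library, the ratio did not overlap between groups in 15, most of them named for that difference or for opposite calls, so that these ratios are a description. The ratio of TMPO-AS1 to TMPO was -4.01, -3.86 and -3.83 in the control libraries and -4.42, -4.76 and -4.51 in the TGF-β1 libraries, that of FBXL19-AS1 to FBXL19 -3.94, -3.77 and -3.83 in the control libraries and -5.59, -4.79 and -5.13 in the TGF-β1 libraries, and that of ZMIZ1-AS1 to ZMIZ1 -2.88, -2.48 and -2.83 in the control libraries and -3.70, -4.09 and -4.17 in the TGF-β1 libraries. All 3 ratios were lower in every TGF-β1 library, the direction that the opposite calls which chose these pairs had fixed. The exact permutation test over libraries, two-sided, was used for 3 pairs that were not chosen in this way and whose antisense RNA reached the count limit in both groups. In this test 3 libraries against 3 cannot go below a p of 0.1. For NR2F1-AS1 and MSC-AS1 the mean ratio went from -1.02 ± 0.35 to -1.73 ± 0.027 and from 0.019 ± 0.33 to -0.97 ± 0.11 (SD, n = 3; exact p = 0.1, adjusted 0.15 over 3 pairs). For ZFPM2-AS1 the ratios overlapped (6.16 ± 0.17 against 6.15 ± 0.080, exact p = 0.9). Those of MAP3K5-AS1 (-3.89 ± 0.32 against -3.84 ± 0.36) and GASK1B-AS1 (-5.05 ± 1.04 against -6.52 ± 0.48) overlapped too, and were not tested because each reached the count limit in 1 group only.

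**Figure D5:**
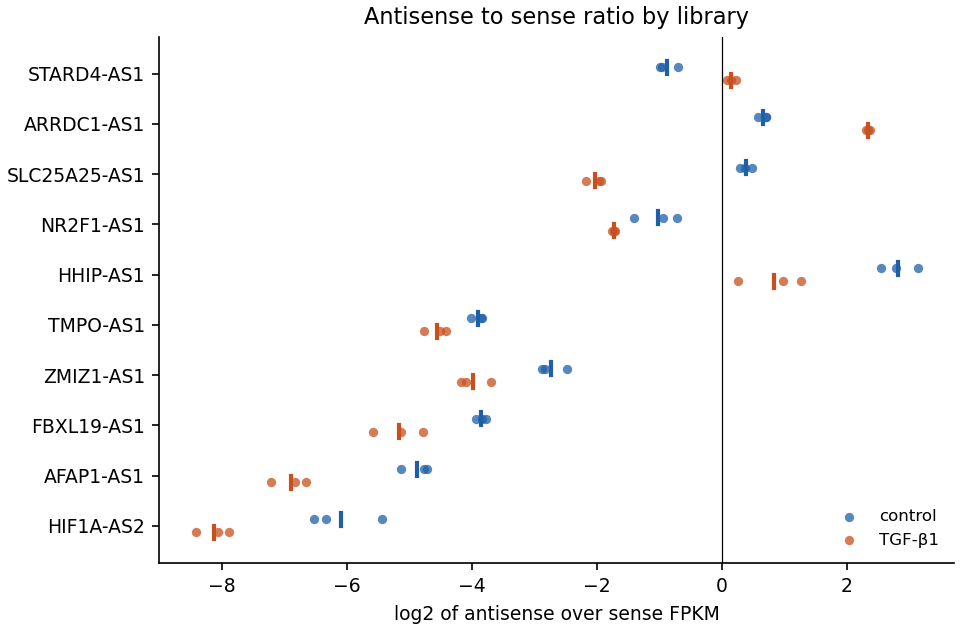
The log2 ratio of antisense to sense FPKM for 10 named pairs, 1 point per library and a bar at the mean of each group of 3. Values above 0 mean that the antisense RNA has the higher FPKM, which exon bases shared with other genes can lower for either RNA. ARRDC1-AS1 moves further above 0 after TGF-β1, STARD4-AS1 crosses from below to above 0, SLC25A25-AS1 crosses from above to below, and HHIP-AS1 falls towards 0 while both RNAs of the pair rose. STARD4 has 2934 of 10140 exon bases free of other exons, so its FPKM is too low. The place of the STARD4-AS1 ratio against 0 depends on this.

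Antisense RNAs of genes for TGF-β signalling, matrix and adhesion were called in both directions. The list held 15 antisense RNAs, of which 2 were called higher and 3 lower of 14 tested (35.7%, beside 29.3% of all antisense RNAs tested), with a median log2 fold change of -0.11, beside -0.16 for all antisense RNAs tested. Their 14 sense genes included 4 called higher (COL4A2, COL5A1, INHBA and THBS3) and 6 called lower (ACVR2B, ADAMTS9, ITGB2, ITGB8, LAMC1 and TGFB2), which is 71.4% beside 53.3% of all sense genes tested. The antisense calls were COL5A1-AS1 and INHBA-AS1 higher and ITGB2-AS1, ITGB8-AS1 and LAMC1-AS1 lower, each in the direction of its sense gene. LAMC1-AS1, within an intron of the laminin γ1 gene, was at 1.64, 1.64 and 2.003 CPM in the control libraries and 0.346, 1.24 and 0.955 CPM in the TGF-β1 libraries. LAMC1-AS1 changed by -1.06 ± 0.36 (SE, adjusted p = 0.0368), and the call was lost in 4 of the 6 fits without 1 library, those without control replicate 1, 2 or 3 or TGF-β1 replicate 3 (-1.16 to -0.96). Without TGF-β1 replicate 1 it was -0.68 and without TGF-β1 replicate 2 -1.47, and both were called.

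The other antisense RNAs of this list did not pass the test. COL4A2-AS1, with 85% of its exon bases in introns of the basement membrane collagen gene COL4A2, was at 0.975, 0.613 and 1.02 CPM against 1.31, 1.32 and 1.39 CPM (0.62 ± 0.24 (SE, adjusted p = 0.0572)), and COL4A2 changed by 1.07 ± 0.062. ACVR2B-AS1 was at 0.886, 0.818 and 1.15 CPM against 0.384, 0.579 and 0.812 CPM (-0.70 ± 0.31 (SE, adjusted p = 0.0895)), beside -0.47 ± 0.11 for the activin receptor gene ACVR2B. TGFB2-AS1, which starts 342 bases from the TGF-β2 gene, was at 0.576, 0.368 and 0.511 CPM against 0.499, 0.372 and 0.286 CPM (-0.30 ± 0.36 (SE, adjusted p = 0.532)), beside -0.40 ± 0.063 for TGFB2. Of these 3, the groups of COL4A2-AS1 and ACVR2B-AS1 did not overlap, while those of TGFB2-AS1 did. LOXL1-AS1, the highest of the list per length (6.75 FPKM), was at 18.2, 18.8 and 19.99 CPM against 20.7, 20.1 and 17.8 CPM (0.039 ± 0.078). VCAN-AS1 (-0.46 ± 0.52), SEMA3F-AS1 (0.18 ± 0.22), THBS3-AS1 (-0.21 ± 0.23), ADAMTS9-AS2 (0.30 ± 0.19) and MMP25-AS1 (-0.014 ± 0.25) overlapped between groups, and ADAMTS9-AS1 was too scarce to be tested. In other edgeR fits ACVR2B-AS1 was called without TGF-β1 replicate 3 (-0.98, adjusted p = 0.0397), THBS3-AS1 without TGF-β1 replicate 1 (-0.52, adjusted p = 0.047) and COL4A2-AS1 over names with 1 entry (0.63, adjusted p = 0.0439).

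Grouped by the role of the sense gene, the shares called ran from 3 of 15 for RNA processing and translation to 4 of 7 for cell cycle and DNA repair, beside 29.3% of all antisense RNAs tested. Those 4 were CDK6-AS1, which starts 90 bases from the G1 kinase gene CDK6 and changed by 1.41 ± 0.24 (SE, adjusted p = 0.000766), and MCM3AP-AS1 (-0.40 ± 0.11), OIP5-AS1 (-0.24 ± 0.055) and TMPO-AS1, all lower. Antisense RNAs of transcription factors held 7 higher and 9 lower calls of 52, among them those of NR2F1, NR2F2, PAX8 and HIF1A above. For regulators of the cytoskeleton the counts were 2 higher and 3 lower of 17, with VIM-AS1 (0.75 ± 0.18) and FGD5-AS1 higher, and for metabolism and transporters 1 higher and 5 lower of 25, with SLC25A25-AS1 and SLCO4A1-AS1 among the lower. RNA processing and translation held 1 higher and 2 lower of 15. The 266 antisense RNAs whose sense gene is on no list held 16 higher and 58 lower calls of 256 tested. VIM, the intermediate filament gene of mesenchymal cells, rose together with VIM-AS1, by 0.85 ± 0.075.

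The antisense RNAs of the HOX clusters, transcription factor genes of body position, carry the cluster's name and were read against the genes they face. In the HOXA cluster, HOXA-AS2 was at 2.53, 2.94 and 3.11 CPM against 4.61, 3.64 and 4.297 CPM (0.55 ± 0.16 (SE, adjusted p = 0.0149)), and the genes it overlaps, HOXA3 and HOXA4, changed by 0.51 ± 0.066 and 0.89 ± 0.12. HOXA-AS3 did not pass the test (0.12 ± 0.22 (SE, adjusted p = 0.692)), and of the genes it overlaps, HOXA3, HOXA5 (0.66 ± 0.059) and HOXA7 (1.45 ± 0.13) were called higher and HOXA6 was not called (0.35 ± 0.18). In the HOXB cluster, HOXB-AS2 was at 1.55, 2.17 and 2.51 CPM against 0.461, 0.951 and 1.098 CPM (-1.33 ± 0.31 (SE, adjusted p = 0.00509)) and HOXB-AS3 at 7.4, 6.58 and 7.07 CPM against 3.495, 4.34 and 5.01 CPM (-0.71 ± 0.15 (SE, adjusted p = 0.00248)), and HOXB3, which faces both, changed by -0.60 ± 0.060. HOXB-AS1 overlaps HOXB3 as well and was not called (-0.066). HOXB-AS4 rose by 0.49 ± 0.18 (SE, adjusted p = 0.0468), as did LOC101060400 (0.43 ± 0.061) and the microRNA gene MIR196A1 (0.83 ± 0.24), which overlap it, while HOXB9, head to head with it, was at 0.019 ± 0.069 and not called. HOXC-AS1 and HOXC-AS2 were not called, at 0.065 and 0.058.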

How the data were processed

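RNA-seq libraries of HK-2 cells (3 control, 3 TGF-β1, grouped by the treatment label) were compared. Reads with adapters or of low quality were filtered out by the authors. The submitters' processing notes name CASAVA, featureCounts 2.0.1, DESeq2 1.16.1 and hg38, and the aligner is not given in the sources used here. Per the file headers, each deposited table holds raw counts per gene with the authors' TPM and FPKM values; TPM was not used. Tables listed 42095 entries on GRCh38, of which those without a gene name were left out.

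Entries were tested with edgeR 4.0.16 (filterByExpr, TMM, robust quasi-likelihood F test, two-sided) in R 4.3.3 over 14860 named genes, with Benjamini-Hochberg adjustment, and CPM used the same scaling. Single ratios used exact permutation tests (scipy 1.17.1). Scripts were tested on simulated data: with dispersions following a trend, unchanged genes made up no more of the calls than the adjusted p allows, and with dispersions drawn gene by gene they made up more. Coordinates in the tables gave strand, overlap and distance between starts. Depth was 21.9 to 26.9 megacounts (M), and intervals cover counting error only. The correlation of deviations of libraries with the same replicate number was 0.111, -0.012 and 0.076, so the numbers were not taken as pairs.

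Named antisense RNAs were the 10 largest rises and falls among called members of at least 1 CPM without overlap, the 5 highest by FPKM, the 8 pairs with the largest changes of both genes in each direction class (5 opposite pairs existed), the 5 largest and 5 lowest differences of the antisense to sense ratio among called members, and those whose sense gene is on the list of TGF-β signalling, matrix and adhesion. Members and lists were chosen with earlier results of these data known. Alternatives were DESeq2 1.42.0, other scalings, filters and count limits, a replicate block, names with 1 entry, and leaving out each library. 1 antisense RNA and 1 marker gene are not reported here.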

Additional observations from a re-analysis of the deposited data

How the results depend on the processing

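The 30 higher and 83 lower antisense RNAs and the 64 pairs called in the same direction stayed within 1.5 times their count with DESeq2, other scalings, no filter and names with 1 entry. A mean of at least 50 counts, with fewer genes tested, left 16 higher, 42 lower, 30 pairs in the same direction and 3 in opposite directions. A limit of 50 counts, with fewer members counted (153), left 21 higher and 41 lower. The 5 opposite pairs became 3 with DESeq2, 3 with all genes that had a count and 8 with scaling by total counts only, which called 23 higher and 106 lower; the cause was not tested. Leaving out 1 library gave 24 to 29 higher, 62 to 77 lower, 51 to 64 pairs in the same direction and 2 to 7 in opposite directions, 79 to 102 higher and 75 to 102 lower sense genes, and 15 to 17 pairs with ratios that did not overlap.

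By construction, pairs whose bodies do not overlap gave 8 and 1. Chosen after seeing the data, pairs with no antisense exon base within the sense body gave 8 in the same direction and 1 in opposite directions, those with at least 50% of exon bases in sense introns 35 and 1, and antisense RNAs with at least 90% of exon bases free of other exons 52 lower. The replicate block gave 27 higher and 79 lower antisense RNAs and 63 and 5 pairs, and changed no call of a named gene. Values near 0 that were not called changed sign: LOXL1-AS1 (-0.068 with total counts, and -0.0164 to 0.0985 without 1 library), SLC25A25 (-0.078, and -0.0400 to 0.0759) and MMP25-AS1 (0.00046 with names of 1 entry, and -0.31 to 0.154 without 1 library). Of all other values of named genes under the alternatives, 811 kept direction and call, 25 lost the call and 4 gained it. Depth limits the scarce members: 161 lie under 1 CPM.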
